A study of Mus musculus with 6 samples.

Results

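The collagen genes of mouse pulmonary artery smooth muscle cells (mPASMCs) are described here, as measured by RNA sequencing after knockdown of the long noncoding RNA *Snhg18*. They were taken as every protein-coding gene of the count table whose symbol is Col, a number, a and a number, which gave 44 of the 55487 genes listed. Of these, 32 had enough reads to be tested, among 14531 tested genes in all. By the structure of the collagen they encode, 11 of the 44 genes are fibrillar, 9 form networks, 6 form beaded filaments, 9 belong to the fibril-associated collagens with interrupted triple helices (FACIT), 4 are transmembrane and 5 are of other kinds.

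The cells were mPASMCs from a commercial supplier, grown in medium with fetal bovine serum at low passage, and they received by Lipofectamine either a control siRNA (si-NC, the negative control) or an siRNA against *Snhg18* (si-*Snhg18*). The strain, sex and age of the mice are not given in the sources used here. There were 3 libraries in each group, labelled as repeats 1 to 3, and nothing in the labels says that they came from separate cultures or animals, so p-values measure only the spread between these libraries. The oxygen level and the time after transfection are not given for the sequenced cells, and effects of the siRNA on other targets and loss of *Snhg18* cannot be told apart in this design.

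A collagen molecule is a helix of alpha chains wound around each other, and each Col gene encodes one chain. The chains are hydroxylated, glycosylated and folded in the endoplasmic reticulum, leave it in enlarged transport vesicles, lose their propeptides outside the cell and are cross-linked into fibrils or sheets. In the wall of the pulmonary artery, smooth muscle cells deposit much of this matrix: collagens I and III form the load-bearing fibrils, collagen V is built into them and limits their width, and collagen IV forms the basement membrane around each cell.

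The counted reads ranged from 18097718 in si-*Snhg18* 3 to 25988746 in si-*Snhg18* 1, and 3 reads, the smallest level taken as measurable, equalled 0.115 to 0.166 CPM. CPM are the counts of a library scaled to a common total after TMM normalization, which evens out differences in composition between libraries. The targeted RNA itself stood at 23.5, 22.4 and 22.2 CPM in si-NC 1 to 3 and at 10.6, 11.2 and 9.97 CPM in si-*Snhg18* 1 to 3. *Snhg18* fell by 1.1 on the log2 scale (SE 0.1, adjusted p = 0.00727, edgeR quasi-likelihood test), which left 46.7% of its mean level. Smooth muscle markers took 0.173% to 0.191% of the reads in si-NC and 0.117% to 0.19% in si-*Snhg18*, with all 8 of the markers above 10 reads. *Tagln*, an actin-binding protein of contractile cells, was the 1 marker of the 8 that passed the test of the groups (log2 fold change -0.51, SE 0.11, adjusted p = 0.0427, edgeR), or 12.5% against 7.36% of all tested genes. In a fit that compares same-numbered libraries (the block, explained with the collagen counts), 4 of the 8 were lower and 0 higher, or 50% against 27.2%: *Tagln* (-0.52, adjusted p = 0.00375), *Cnn1* (-0.49, adjusted p = 0.0113), *Myh11* (-0.67, adjusted p = 0.0207) and *Des* (-1.76, adjusted p = 0.00154). Fibroblast markers, 6 of 8 above 10 reads and 2 of them collagen genes (*Col13a1* and *Col14a1*), took 0.0519% to 0.0577% in si-NC and 0.0386% to 0.0493% in si-*Snhg18*. Of the 6 tested, *Pdgfra* alone passed with the block (-0.35, adjusted p = 0.0112), or 16.7% against 27.2%. Without the block, 3 of the 6 had a log2 fold change above 0 and 3 below. *Pdgfra* held most of the fibroblast marker reads, so the sums mostly follow this gene. It had 11098, 10566 and 12252 reads in si-NC 1 to 3 and 10627, 7916 and 7331 in si-*Snhg18* 1 to 3. Markers of endothelial cells, leukocytes, chondrocytes and epithelial cells each took at most 0.00402% of a library. At most 10 reads in any library were found for 1 of 6 endothelial markers (*Tie1*), 3 of 6 leukocyte markers (*Ptprc*, *Itgam* and *Cd3e*), 3 of 6 chondrocyte markers (*Acan*, *Matn1* and *Hapln1*) and 3 of 6 epithelial markers (*Epcam*, *Cdh1* and *Krt5*), with *Cd3e*, *Matn1*, *Hapln1* and *Krt5* at 0 in all libraries. Other members of these lists had reads, up to 983 for *Sox9*, 542 for *Krt18*, 247 for *Cdh5* and 216 for *Csf1r*. With the block *Krt18* (-1.94, adjusted p = 0.00216) and *Tek* (-1.47, adjusted p = 0.0341) were lower, and neither passed without it. These were 1 of 2 tested epithelial and 1 of 4 tested endothelial markers, or 50% and 25% against 27.2%. In these bulk libraries, fewer cells of a type and less RNA per cell cannot be told apart, and the part of these marker levels in the collagen values was not tested.

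In the comparison of si-*Snhg18* with si-NC, *Col5a3* rose about 9.6-fold and *Col12a1* fell, while the other 30 tested collagen genes did not pass an adjusted p-value of 0.05 in the edgeR quasi-likelihood fit of the groups, with Benjamini-Hochberg adjustment over all tested genes. That is 6.25% of the collagen genes against 7.36% of all tested genes (3.65% higher and 3.71% lower in si-*Snhg18*), a share near the background. At an unadjusted p of 0.05, 6 collagen genes passed, and nothing is read from this, since the share over all tested genes was not computed. The log2 fold change was above 0 in 10 and below 0 in 22 of the 32 genes, with a median of -0.24 against 0.01 over all tested genes. Over all tested genes it was above 0 in 7384 and below 0 in 7147. The median size of the change, regardless of direction, was 0.48 for the collagen genes and 0.25 for all tested genes.

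The libraries numbered 2 resembled each other across the 2 groups and stood apart from those numbered 1 and 3, which the data did not separate from each other by number. A second fit, set as an alternative, compared libraries within repeat numbers, by adding the number as a block. With the block, 14 of the 32 collagen genes passed, or 43.8%, against 27.2% of all tested genes. Of these, 7 were higher and 7 were lower in si-*Snhg18*, against 13.6% higher and 13.6% lower among all genes. The 14 were *Col5a1*, *Col5a2*, *Col5a3*, *Col6a3*, *Col4a2*, *Col18a1* and *Col23a1* on the higher side and *Col1a1*, *Col1a2*, *Col3a1*, *Col11a1*, *Col6a2*, *Col12a1* and *Col4a3* on the lower side. DESeq2 with the block called 12 collagen genes, in a fit in which 3166 of 14531 tested genes passed. The libraries numbered 1 and 3 alone, without a block, gave 15, where 4020 of 14587 tested genes passed.

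The groups of 3 libraries did not overlap for 8 collagen genes, or 25%, against 30.9% of all tested genes. All 3 differences between same-numbered libraries had one sign for 26 collagen genes, or 81.2%, against 59.6% of all tested genes. Of these 26 genes, 8 were higher and 18 lower in si-*Snhg18* each time. Among the 14531 tested genes, 4302 were higher and 4364 lower each time.

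**Figure D1:**
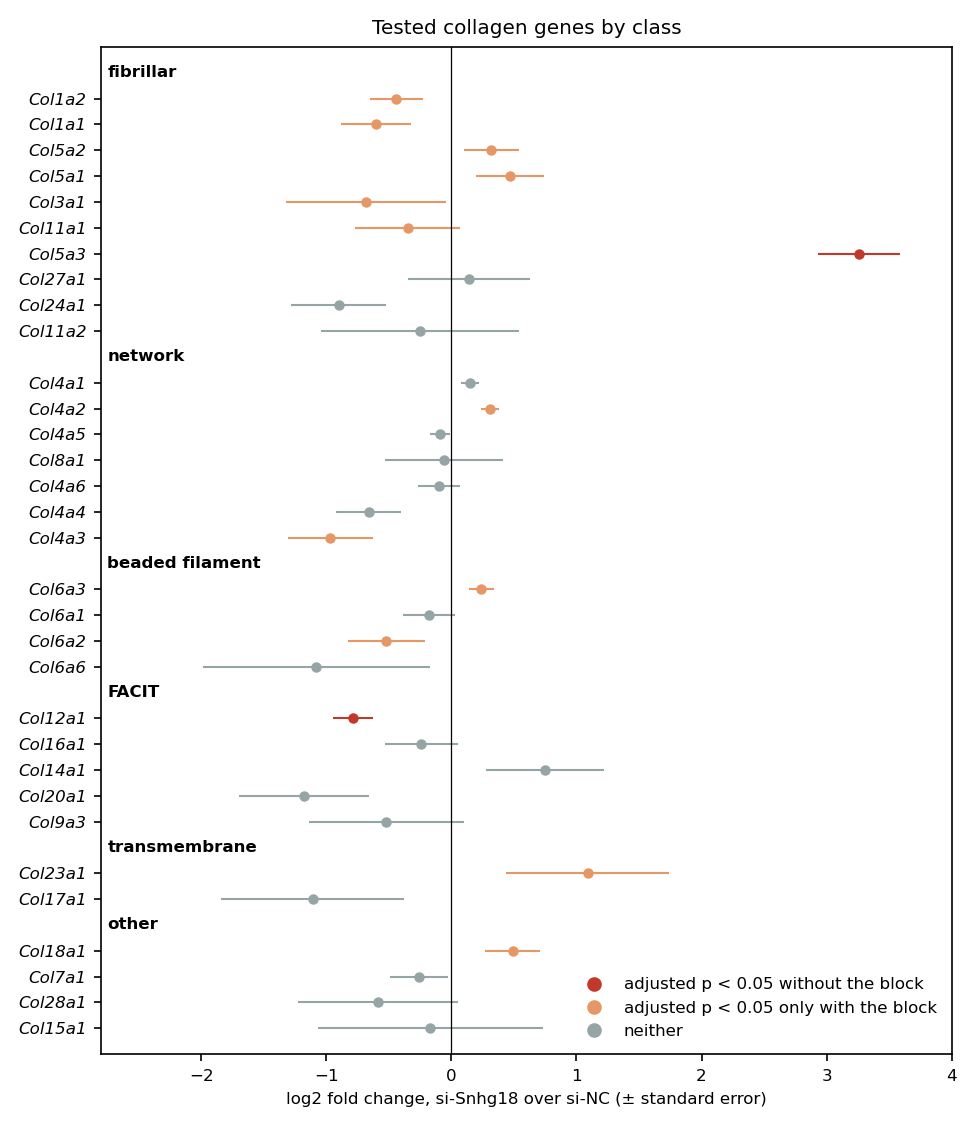
Log2 fold change of si-*Snhg18* over si-NC (x axis) with its standard error for the 32 tested collagen genes (rows), grouped by class and ordered by mean level, from the fit without the block. Red points mark *Col5a3* and *Col12a1*, which passed in that fit, orange points mark the 12 genes that passed only with the block, and grey points mark the rest, with *Col5a3* at 3.26 far to the right of all others.

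Among the fibrillar collagens the 3 chains of collagen V were higher in si-*Snhg18* while the chains of collagens I and III were lower, all of them with the block and only *Col5a3* without it. Of 11 genes, 10 were tested, and the median log2 fold change was -0.3. Without the block 1 passed (higher), or 10% against 7.36% of all tested genes. With it 7 passed (3 higher, 4 lower), or 70% against 27.2%.

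*Col5a3* (ENSMUSG00000004098) spans bases 20770050 to 20815067 of chromosome 9 (GRCm38, minus strand) and encodes the third chain of collagen V, which is found in fewer tissues than the other 2. It had 75, 174 and 75 reads in si-NC 1 to 3 and 1138, 1124 and 765 reads in si-*Snhg18* 1 to 3. This corresponded to 3.24, 7.11 and 3.18 CPM in si-NC and 45, 43.2 and 41.9 CPM in si-*Snhg18*, so that the lowest si-*Snhg18* library was several times the highest si-NC library. Its log2 fold change was 3.26 (SE 0.33, adjusted p = 0.00761, edgeR), and only 8 of the 14531 tested genes had a larger one. The differences between same-numbered libraries were 3.76, 2.59 and 3.69 on the log2 scale, the smallest in the repeat whose si-NC library was highest. The call was lost without si-NC 1 (adjusted p = 0.0659), si-NC 3 (0.07) or si-*Snhg18* 3 (0.0753), in fits in which no gene of the table passed, with log2 fold changes of 3.07 to 3.29.

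*Col5a1* and *Col3a1* passed with the block only. The 250 bases before the annotated start of *Col5a3* and of *Col5a1* are shown because both genes were higher in si-*Snhg18*, and those of *Col3a1* because it was lower. They are taken from RefSeq promoter windows on GRCm38.p6 and read 5′ to 3′ on the strand of each gene, with capitals marking the GC box GGGCGG, the CCAAT box CCAAT and the TATA box TATAAA on either strand. They lie at chr9:20815068-20815317 (minus strand), chr2:27886175-27886424 (plus strand) and chr1:45311288-45311537 (plus strand).
Col5a3: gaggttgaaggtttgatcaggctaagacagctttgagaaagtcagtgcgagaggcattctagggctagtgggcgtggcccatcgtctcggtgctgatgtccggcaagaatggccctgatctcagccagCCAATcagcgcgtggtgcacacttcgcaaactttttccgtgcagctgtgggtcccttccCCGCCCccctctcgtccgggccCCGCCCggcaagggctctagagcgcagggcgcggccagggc
Col5a1: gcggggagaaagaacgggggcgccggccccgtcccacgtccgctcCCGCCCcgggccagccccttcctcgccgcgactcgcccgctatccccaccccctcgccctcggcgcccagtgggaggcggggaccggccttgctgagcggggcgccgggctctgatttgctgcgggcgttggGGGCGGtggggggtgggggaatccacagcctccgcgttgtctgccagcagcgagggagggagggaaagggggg
Col3a1: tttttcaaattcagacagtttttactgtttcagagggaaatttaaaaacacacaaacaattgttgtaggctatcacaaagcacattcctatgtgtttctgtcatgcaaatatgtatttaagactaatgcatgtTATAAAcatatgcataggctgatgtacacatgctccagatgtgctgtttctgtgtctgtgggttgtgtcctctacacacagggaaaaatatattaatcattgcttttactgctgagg
The *Col5a3* window held 2 GC boxes and 1 CCAAT box, the *Col5a1* window held 2 GC boxes, and the *Col3a1* window held 1 TATA box and neither of the others. Among other genes called with the block, the lower *Col1a2* and *Col11a1* also held 2 GC boxes and 1 CCAAT box each. The higher *Col6a3* held none of these motifs, so the windows shown do not stand for all higher or lower genes. Of 32851 windows of all genes, 32.7% held a GC box, 33.8% a CCAAT box and 12.4% a TATA box, in matches that do not show binding. Of the 38 windows of collagen genes, from 35 of the 44 members, 22, 13 and 5 held them. Not matched were *Col12a1*, *Col14a1*, *Col1a1*, *Col22a1*, *Col26a1*, *Col2a1*, *Col4a3*, *Col5a2* and *Col9a3*.

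The more abundant chains of collagen V moved the same way by less. *Col5a1*, the chain present in nearly all collagen V, stood at 320.3, 485 and 296 CPM in si-NC 1 to 3 and at 383, 684 and 453 CPM in si-*Snhg18* 1 to 3. Both groups were highest in library 2, and they overlapped. Its log2 fold change was 0.47 (SE 0.27, adjusted p = 0.34, edgeR) and 0.46 with the block (SE 0.08, adjusted p = 0.00558). For *Col5a2*, the second common chain, the levels were 829, 1157 and 805 CPM in si-NC and 949, 1497 and 1035 CPM in si-*Snhg18*, again overlapping and again highest in library 2. For *Col5a2* the log2 fold change was 0.32 (SE 0.22, adjusted p = 0.409) and 0.31 with the block (SE 0.06, adjusted p = 0.00935). In CPM per kilobase of exon, the chains remained unequal, at 0.737 for *Col5a3*, 43.7 for *Col5a1* and 140.4 for *Col5a2* in si-NC, and 7.09, 60.3 and 175 in si-*Snhg18*.

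The major chains of collagens I and III were lower in si-*Snhg18* within every repeat. *Col1a1*, the chain present in excess in collagen I, stood at 1746, 2472 and 1711 CPM in si-NC 1 to 3 and at 911, 1860.4 and 1133 CPM in si-*Snhg18* 1 to 3. The groups overlapped, since si-*Snhg18* 2 lay above si-NC 1 and 3. Its log2 fold change was -0.6 (SE 0.28, adjusted p = 0.25, edgeR) and -0.65 with the block (SE 0.1, adjusted p = 0.00369). *Col1a2*, its partner chain, stood at 2297, 2988 and 2285 CPM in si-NC and at 1451, 2449.7 and 1694 CPM in si-*Snhg18*, with the same overlap. For *Col1a2* the change was -0.44 on the log2 scale (SE 0.21, adjusted p = 0.263) and -0.46 with the block (SE 0.08, adjusted p = 0.00549).

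*Col3a1*, the single chain of collagen III, which is typical of distensible tissues such as vessels, stood at 174, 313 and 178 CPM in si-NC 1 to 3 and at 49.7, 284 and 80.8 CPM in si-*Snhg18* 1 to 3. The libraries numbered 2 were again the highest in both groups, and without them the groups did not overlap. The difference between same-numbered libraries was -1.81, -0.14 and -1.14 on the log2 scale, so repeat 2 contributed little. Its log2 fold change was -0.68 (SE 0.64, adjusted p = 0.552, edgeR), -1.01 with the block (SE 0.27, adjusted p = 0.0294) and -1.44 in the libraries numbered 1 and 3 (adjusted p = 0.0028). With DESeq2 and the block it did not pass (-1.03, adjusted p = 0.09). *Col11a1*, a chain of a fibril collagen related to collagen V, stood at 135, 225 and 132 CPM in si-NC and at 74, 213 and 98.7 CPM in si-*Snhg18*. Its log2 fold change was -0.35 (SE 0.42, adjusted p = 0.65) and -0.45 with the block (SE 0.13, adjusted p = 0.0429). The 3 other tested fibrillar genes, *Col11a2*, *Col24a1* and *Col27a1*, were at or below 6.63 CPM and passed in neither fit.

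**Figure D2:**
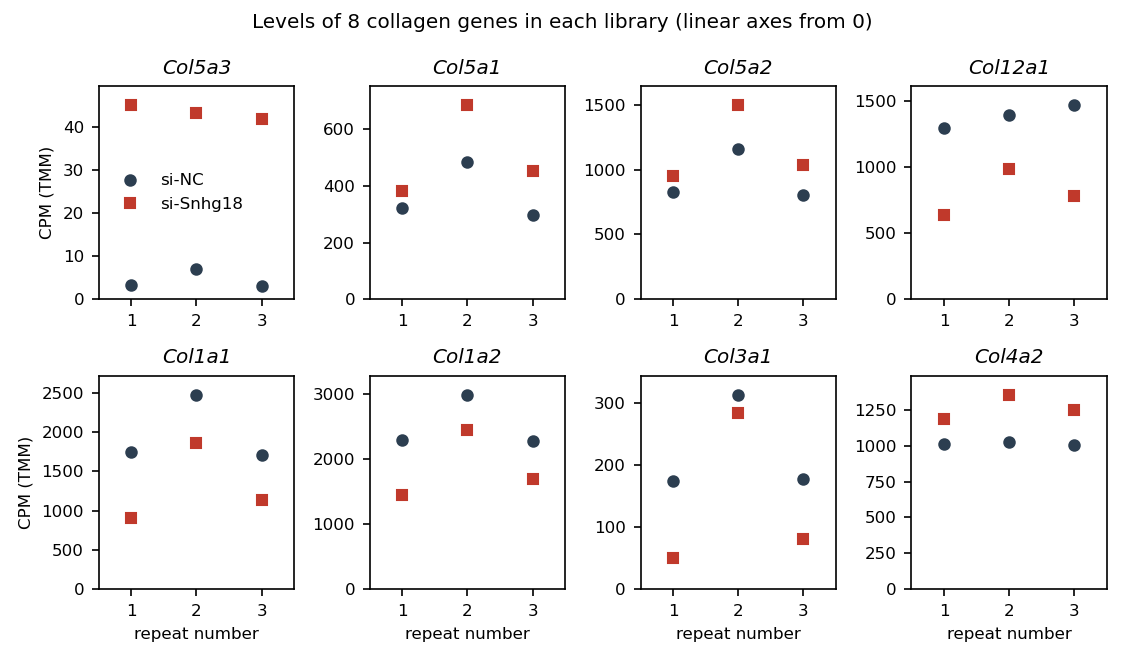
TMM-normalized CPM (y axis, linear and starting at 0, a scale per gene) against the repeat number (x axis) for 8 collagen genes, with circles for si-NC and squares for si-*Snhg18*. *Col5a3* and *Col12a1* separate the groups in every repeat, *Col1a1*, *Col1a2*, *Col3a1*, *Col5a1* and *Col5a2* are highest in repeat 2 in both groups, and *Col4a2* is higher in si-*Snhg18* in each repeat.

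Of the network collagens, the basement membrane chain *Col4a2* came closest to the threshold, and no member passed without the block among 7 tested of 9 genes. With the block 2 passed, *Col4a2* higher and *Col4a3* lower, or 28.6% against 27.2% of all tested genes, a share near the background. Unadjusted, 3 of the 7 had p under 0.05, a share not computed over all tested genes, and the median log2 fold change was -0.09. *Col4a1* and *Col4a2*, which encode the chains of the common collagen IV, stand head to head on chromosome 8 and share 22 annotated bases at their starts, chr8:11312805-11312826, shown here because both genes were measured at high and similar levels. The shared bases, read in the direction of *Col4a1* with the GC box in capitals, are the following.
Col4a1 and Col4a2: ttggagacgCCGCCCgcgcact

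*Col4a2* stood at 1015, 1028 and 1006 CPM in si-NC 1 to 3 and at 1185, 1354 and 1251 CPM in si-*Snhg18* 1 to 3, and *Col4a1* at 1463, 1433 and 1527 CPM in si-NC and at 1552, 1731 and 1610 CPM in si-*Snhg18*. For both genes every si-*Snhg18* library lay above every si-NC library. The log2 fold change of *Col4a2* was 0.31 (SE 0.07, adjusted p = 0.0501, edgeR) and 0.31 with the block (SE 0.06, adjusted p = 0.00806). DESeq2 (adjusted p = 0.00133) and limma-voom (0.0456) put it past 0.05 without the block. For *Col4a1* it was 0.15 (SE 0.07, adjusted p = 0.256) and 0.14 with the block (SE 0.06, adjusted p = 0.119). In per-kilobase levels *Col4a1* was 1.42 times *Col4a2* in si-NC (SD 0.061, n = 3) and 1.26 times in si-*Snhg18* (SD 0.0159, n = 3), and the ratios did not overlap.

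*Col4a3* and *Col4a4*, chains of a collagen IV of specialised basement membranes, are also transcribed away from each other, with 71 bases between their starts on chr1:82586850-82586920. The sequence, read in the direction of *Col4a4*, held none of the 3 motifs, and is shown because both genes were lower in all si-*Snhg18* libraries than in all si-NC libraries.
Col4a4 and Col4a3: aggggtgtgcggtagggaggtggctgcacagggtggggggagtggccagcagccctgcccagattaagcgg
*Col4a3* stood at 3.32, 2.33 and 2.75 CPM in si-NC 1 to 3 and at 2.06, 1.27 and 0.932 CPM in si-*Snhg18* 1 to 3, with a log2 fold change of -0.97 (SE 0.34, adjusted p = 0.145, edgeR) and -1 with the block (SE 0.28, adjusted p = 0.0343). With DESeq2 and the block it did not pass (adjusted p = 0.0672). It had at most 77 reads, and the overlapping gene *C430014B12Rik* on the opposite strand had at most 37, so reads of the 2 may not be separable. *Col4a4* stood at 4.49, 4.21 and 6.36 CPM in si-NC and at 4.04, 2.88 and 2.58 CPM in si-*Snhg18*, with a log2 fold change of -0.66 (SE 0.26, adjusted p = 0.183) and an adjusted p of 0.0967 with the block. *Col4a5* and *Col4a6*, chains of a further collagen IV network, passed in neither fit (log2 fold changes -0.09 and -0.1, adjusted p = 0.499 and 0.754). *Col8a1*, a short-chain collagen made by smooth muscle and endothelial cells, stood at 119, 231 and 115 CPM in si-NC and at 87.6, 255 and 106 CPM in si-*Snhg18*, and passed in neither fit (log2 fold change -0.06, SE 0.47, adjusted p = 0.955). Its partner *Col8a2* was not tested, with no library above 6 reads.

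Of the beaded filament collagen VI, no member passed without the block among 4 tested of 6 genes, and with it 1 was higher and 1 was lower. With the block this was 50% against 27.2% of all tested genes. *Col6a3*, its longest chain, stood at 519.5, 473 and 553 CPM in si-NC 1 to 3 and at 597, 556 and 669 CPM in si-*Snhg18* 1 to 3, without overlap. The log2 fold change was 0.24 (SE 0.1, adjusted p = 0.193, edgeR), and the block gave 0.24 (SE 0.05, adjusted p = 0.0166). *Col6a2* went the other way, at 44.3, 66.6 and 44.1 CPM in si-NC and 24.9, 52.4 and 30.9 CPM in si-*Snhg18*, with overlap through si-*Snhg18* 2. For *Col6a2* this gave -0.52 on the log2 scale (SE 0.31, adjusted p = 0.346) and -0.56 with the block (SE 0.1, adjusted p = 0.00779). *Col6a1* stood at 107, 148 and 117 CPM in si-NC and at 88, 143 and 97 CPM in si-*Snhg18* (log2 fold change -0.18, SE 0.21, adjusted p = 0.647, and 0.069 with the block). The per-kilobase level of *Col6a1* was 2.34 times that of *Col6a2* in si-NC (SD 0.203, n = 3) and 3.02 times in si-*Snhg18* (SD 0.383, n = 3), with no overlap between the groups. *Col6a6* had at most 0.98 CPM and passed in neither fit.

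*Col12a1* fell, and it was the 1 FACIT gene that passed in either fit, among 5 tested of 9. That was 20%, against 7.36% of all tested genes without the block and 27.2% with it. *Col12a1* (ENSMUSG00000032332), which spans bases 79598991 to 79718831 of chromosome 9 (minus strand), encodes a collagen that sits on the surface of collagen I fibrils. It stood at 1295, 1393 and 1465 CPM in si-NC 1 to 3 and at 633, 983 and 780.2 CPM in si-*Snhg18* 1 to 3, without overlap. The log2 fold change was -0.79 (SE 0.16, adjusted p = 0.0377, edgeR), and -0.81 with the block (SE 0.1, adjusted p = 0.00181). The call was lost without any one library other than si-*Snhg18* 2, with log2 fold changes between -0.84 and -0.65. The adjusted p (edgeR) was 0.0602 without si-*Snhg18* 1, 0.113 without si-NC 2 and 0.135 without si-NC 1. It was 0.147 without si-NC 3 and 0.169 without si-*Snhg18* 3. No gene of the table passed without si-NC 1, si-NC 3 or si-*Snhg18* 3. Without si-NC 2, 158 of 14840 tested genes passed, and without si-*Snhg18* 1, 319 of 14798. *Col16a1*, another FACIT of connective tissue, stood at 95.9, 164 and 94.1 CPM in si-NC and at 74, 134 and 91.5 CPM in si-*Snhg18*, with overlap and an adjusted p of 0.657 (0.0545 with the block). *Col14a1*, *Col20a1* and *Col9a3* were at or below 6.07 CPM and passed in neither fit. *Col20a1* had at most 37 reads, and *9230112E08Rik*, which overlaps it on the same strand, had up to 460.

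Of the transmembrane collagens, which span the cell membrane, *Col23a1* stood at 3.97, 1.47 and 4.53 CPM in si-NC 1 to 3 and at 9.34, 2.08 and 9.86 CPM in si-*Snhg18* 1 to 3. Here library 2 was the lowest in both groups, and the groups overlapped. Its log2 fold change was 1.09 (SE 0.65, adjusted p = 0.351, edgeR) and 1.01 with the block (SE 0.2, adjusted p = 0.011). *Col17a1*, the other tested member of 4, had at most 0.777 CPM and passed in neither fit. Among the 5 remaining collagens, *Col18a1*, a basement membrane collagen whose end fragment is endostatin, stood at 16.4, 26.8 and 16.3 CPM in si-NC and at 26.4, 31.5 and 25.4 CPM in si-*Snhg18*. For *Col18a1* the change was 0.49 on the log2 scale (SE 0.22, adjusted p = 0.233) and 0.51 with the block (SE 0.12, adjusted p = 0.0166). *Slc19a1* on the opposite strand overlaps it, with up to 394 reads against up to 819 for *Col18a1*. *Col7a1*, the anchoring fibril collagen, *Col15a1* and *Col28a1* passed in neither fit.

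The 12 genes not tested had at most 7 reads in any library. They were *Col2a1*, the cartilage fibril collagen, with 1 read in all, *Col8a2* and *Col10a1*, *Col6a4* and *Col6a5*, *Col9a1*, *Col9a2*, *Col19a1* and *Col22a1*, *Col13a1* and *Col25a1*, and *Col26a1*. *Col9a2* had 0 reads in all 6 libraries, which allows up to 0.115 to 0.166 CPM by library.

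Together the collagen genes took 1.03%, 1.29% and 1.04% of the counted reads in si-NC 1 to 3 and 0.81%, 1.28% and 0.948% in si-*Snhg18* 1 to 3. The groups overlapped, at 1.12% ± 0.148 (SD, n = 3) and 1.01% ± 0.242 (SD, n = 3). The FACIT share was lower, at 0.139%, 0.157% and 0.154% in si-NC against 0.0691%, 0.115% and 0.0882% in si-*Snhg18*, and most of it was *Col12a1*. The network share was 0.276%, 0.289% and 0.28% in si-NC and 0.291%, 0.36% and 0.316% in si-*Snhg18*, every si-*Snhg18* library above every si-NC library. The fibrillar share, 0.547%, 0.771% and 0.535% in si-NC and 0.376%, 0.722% and 0.458% in si-*Snhg18*, overlapped. As a share of the collagen reads alone, FACIT reads were 13.4%, 12.2% and 14.8% in si-NC and 8.53%, 9% and 9.3% in si-*Snhg18*, and *Col5a3* reads were at most 0.0553% in si-NC and at least 0.346% in si-*Snhg18*. In si-NC, the highest per-kilobase levels were those of *Col1a2* (472 CPM per kilobase), *Col1a1* (333), *Col4a1* (223), *Col4a2* (158), *Col5a2* (140.4) and *Col12a1* (120.3). In si-*Snhg18* they were *Col1a2* (349), *Col4a1* (247), *Col1a1* (219.5), *Col4a2* (196), *Col5a2* (175) and *Col6a3* (73.3), with *Col12a1* at 69.4.

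**Figure D3:**
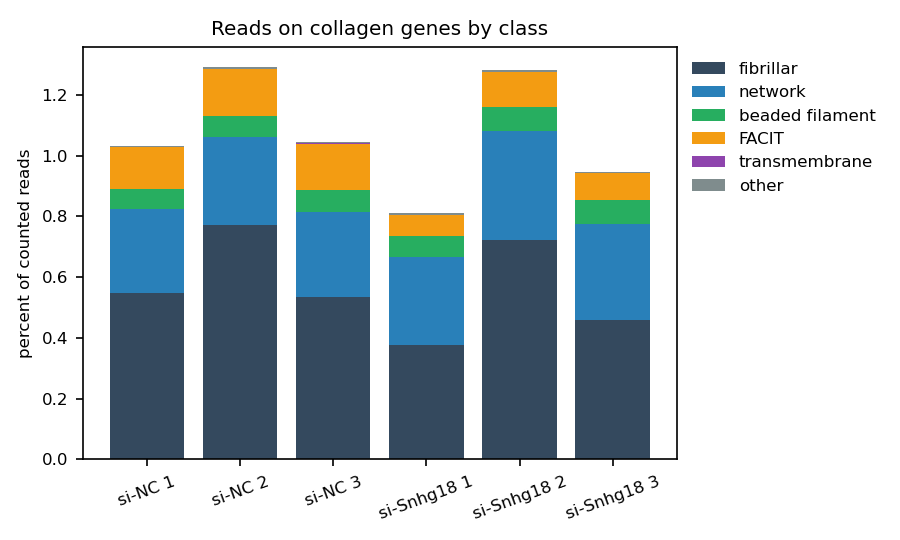
Percent of counted reads (y axis, from 0) on collagen genes in each of the 6 libraries (x axis), stacked by class. Both libraries numbered 2 are the tallest, at 1.29% in si-NC and 1.28% in si-*Snhg18*, and the FACIT segment is smaller in the 3 si-*Snhg18* libraries (0.0691% to 0.115%) than in the 3 si-NC libraries (0.139% to 0.157%).

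Genes that act on collagen were measured as well, 57 genes of which 50 were tested. The lists hold genes for proteins that modify, fold, export, cleave, cross-link, bind or degrade collagen, and the transcription factor *Creb3l1*. Without the block 10 passed, 2 higher and 8 lower, or 20% against 7.36% of all tested genes. With the block 23 passed, 7 higher and 16 lower, or 46% against 27.2%. The median log2 fold change was -0.15 against 0.01 over all tested genes. All of these lists were chosen with earlier results of these data known. These shares therefore cannot show whether genes acting on collagen changed more often than others.

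Of the 12 chaperones and export factors, 5 were lower and 0 higher without the block, among 8 lower calls over all lists. That was 41.7% against 7.36% of all tested genes. With the block 7 were lower and 2 higher, among 16 lower calls, or 75% against 27.2%. The list was chosen with earlier results of these data known. *Serpinh1*, the collagen-specific chaperone HSP47, stood at 787, 1069 and 753 CPM in si-NC 1 to 3 and at 275, 516 and 330.3 CPM in si-*Snhg18* 1 to 3, without overlap. It fell by 1.22 on the log2 scale (SE 0.26, adjusted p = 0.042, edgeR), and missed the threshold without TMM factors (adjusted p = 0.0506). *Sec23a* and *Sec24d*, subunits of the COPII coat of export vesicles, fell by 0.74 (SE 0.07, adjusted p = 0.00761) and by 0.58 (SE 0.1, adjusted p = 0.0254). *Mia3*, which encodes the procollagen export receptor TANGO1, fell by 0.35 (SE 0.06, adjusted p = 0.0253) and the general chaperone *Hspa5* by 0.51 (SE 0.08, adjusted p = 0.0201). With the block, the disulfide isomerase *Pdia3* (-0.32, adjusted p = 0.00518) and *Tmem39a* (-0.34, adjusted p = 0.0245) were also lower, and *Mia2*, which encodes a partner of TANGO1 (0.31, adjusted p = 0.0106) and *Creb3l1*, a transcription factor of secretory genes (0.34, adjusted p = 0.0445), were higher. *Creb3l1* did not pass in DESeq2 with the block (adjusted p = 0.105).

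Of 13 tested genes of proline and lysine modification, 2 passed without the block, or 15.4% against 7.36% of all tested genes. With the block 4 passed, or 30.8% against 27.2%, a share near the background. *P4ha3*, a prolyl 4-hydroxylase subunit, rose from 3.37, 3.92 and 2.75 CPM in si-NC to 8.07, 5.96 and 8.33 CPM in si-*Snhg18* (log2 fold change 1.15, SE 0.22, adjusted p = 0.0315, edgeR). *Ppib*, a prolyl isomerase of the hydroxylation complex, fell by 0.33 (SE 0.07, adjusted p = 0.0368), and missed the threshold when every gene with a read was tested (adjusted p = 0.0571). *Plod1*, a lysyl hydroxylase (-0.24, adjusted p = 0.0148), and *Colgalt1*, a collagen galactosyltransferase (0.21, adjusted p = 0.0282), passed with the block only. *Bmp1*, the procollagen C-proteinase, rose by 0.45 on the log2 scale (SE 0.07, adjusted p = 0.0196), and the N-proteinases *Adamts2* (-0.34, adjusted p = 0.02) and *Adamts14* (-0.44, adjusted p = 0.0392) and the C-proteinase enhancer *Pcolce* (-0.19, adjusted p = 0.0435) were lower with the block only. DESeq2 with the block did not call *Colgalt1* (adjusted p = 0.0583) or *Pcolce* (adjusted p = 0.099). Of 7 tested procollagen proteinases and enhancers, 1 passed without the block, or 14.3% against 7.36%, and 4 with it, or 57.1% against 27.2%.

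Of 5 cross-linking enzymes only *Lox*, lysyl oxidase, passed, with the block (-0.6, adjusted p = 0.00139), or 20% against 27.2% of all tested genes. *Lox* stood at 1954, 2929.9 and 1938 CPM in si-NC 1 to 3 and at 1182, 2143 and 1269.8 CPM in si-*Snhg18* 1 to 3. *Itgb1*, the integrin chain that partners the collagen-binding alpha chains, fell by 0.42 (SE 0.07, adjusted p = 0.0216), while *Ddr2* (0.26, adjusted p = 0.0178), a collagen receptor kinase, and *Mrc2* (0.22, adjusted p = 0.0226), a collagen uptake receptor, were higher with the block only. *Mmp13*, a collagenase, stood at 273, 187 and 310 CPM in si-NC and at 129.7, 64 and 101 CPM in si-*Snhg18* and fell by 1.38 (SE 0.29, adjusted p = 0.0421). *Mmp8*, a related collagenase, was lower with the block only (-1.05, adjusted p = 0.000895), and *Mmp2*, *Mmp14* and *Ctsk* passed in neither fit. Of 8 tested receptors, 1 passed without the block and 3 with it, or 12.5% and 37.5%. Of 5 tested collagenases, 1 passed without the block and 2 with it, or 20% and 40%. The shares over all tested genes were 7.36% and 27.2%. Without si-NC 1, si-NC 3 or si-*Snhg18* 3, no gene of any of these lists passed, and none of the whole table did. Of the listed genes, 14, 15 and 15 had an unadjusted p under 0.05 (edgeR) in these fits. The unadjusted share over all tested genes was not computed. Without si-NC 2 only *Sec23a* passed, and without si-*Snhg18* 1 *Sec23a* and *Itgb1*.

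**Figure D4:**
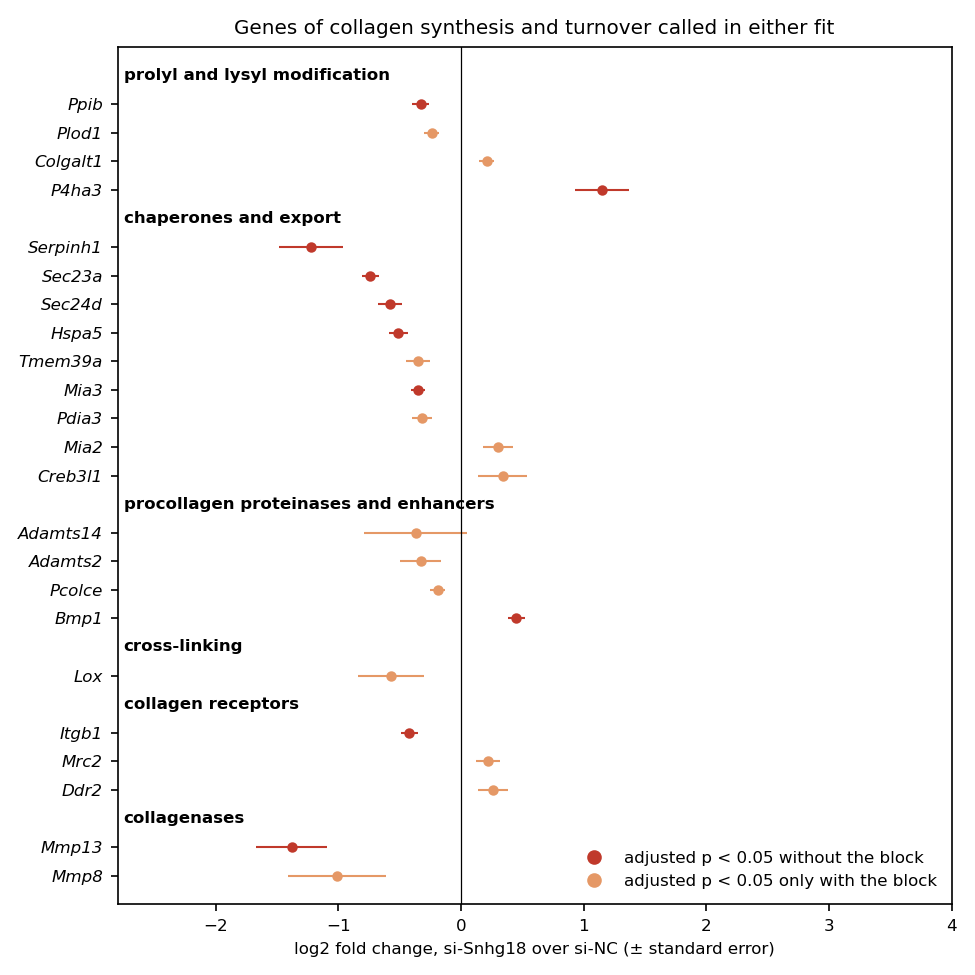
Log2 fold change of si-*Snhg18* over si-NC (x axis) with its standard error, from the fit without the block, for the 23 genes of collagen modification, export, processing, cross-linking, binding and breakdown (rows) that passed in either fit. Red points passed without the block, orange points only with it. *Mmp13* at -1.38 and *Serpinh1* at -1.22 lie farthest to the left and *P4ha3* at 1.15 farthest to the right.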

How the data were processed

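RNA was measured in 6 libraries of mPASMCs, 3 transfected with si-NC and 3 with si-*Snhg18*. The authors used a TruSeq Stranded mRNA kit and deposited whole-number counts of reads per gene, without normalization, with the exon length of each gene (GRCm38.p6). The submitters' processing notes name HISAT2 and mm10. The counting program and its strand setting are not given in the sources used here. All value columns belonged to these libraries.

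In R 4.3.3, low genes were dropped with filterByExpr (minimum count 10), and the rest were normalized by TMM and compared with the quasi-likelihood test of edgeR 4.0.16, with an adjusted p-value under 0.05 as the call. The prior count was 2 for log2 values of same-numbered libraries. Alternatives were DESeq2 1.42.0, limma-voom 3.58.1, RLE factors, no TMM factors, other filters, a 1.5-fold minimum, the replicate block and leaving out each library. DESeq2 with the block and the libraries numbered 1 and 3 alone were added after seeing the data. With 3 libraries per group an exact two-sided permutation test cannot go below 0.1. The pairing comes from the repeat numbers in the labels: once group means were removed, same-numbered libraries correlated across genes at 0.41, 0.742 and 0.359. Between different numbers, si-NC 3 with si-*Snhg18* 1 reached 0.497, above its own number, and si-NC 1 with si-*Snhg18* 3 reached 0.186, while every correlation of a library numbered 2 with another number was negative. The numbers separate repeat 2 but not repeats 1 and 3 from each other.

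Described in full are collagen genes that passed in either fit, *Col1a1*, *Col1a2*, *Col3a1* and genes in chain ratios, and of the other lists, genes that passed in either fit. Members and lists were chosen with earlier results of these data known. Depth intervals and floors cover counting error only, since reads carry no molecular identifiers.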

Additional observations from a re-analysis of the deposited data

How the results depend on the processing

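Of the collagen genes, 2 passed in the planned fit and 2 or 3 with DESeq2, limma-voom, RLE factors, no TMM factors, either other filter and the 1.5-fold minimum. With the replicate block 14 passed, both planned calls among them, with DESeq2 and the block 12, and with the libraries numbered 1 and 3 alone 15. Over all tested genes, 3954, 3166 and 4020 passed in these fits. Leaving out 1 library gave 0 to 11 collagen genes, with 11 without si-*Snhg18* 2, where 3282 of 14832 tested genes passed. The number was 0 without si-NC 1, si-NC 3 or si-*Snhg18* 3. There 3, 5 and 3 had an unadjusted p under 0.05 (edgeR), a share not computed over all tested genes. In the 3 fits with 0, no tested gene of the table passed. For the genes acting on collagen, 10 passed in the planned fit, 9 without TMM factors (*Serpinh1* lost) and 9 with every gene with a read (*Ppib* lost), 23 with the block (all 10 among them), 21 with DESeq2 and the block, 25 with the libraries numbered 1 and 3, 4 with the 1.5-fold minimum, and 0 to 21 without 1 library. Direction across fits was followed only for genes that passed with or without the block and for *Col4a1*, *Col4a4*, *Col6a1*, *Col8a1* and *Col16a1*. Other tested genes of these lists were not followed. Of the genes followed, 2 changed direction, neither of them called. *Col16a1* ranged from -0.52 (without si-*Snhg18* 2) to 0.07 (without si-NC 2). *Col8a1* changed direction too, with log2 fold changes from -0.69 to 0.34 across fits, of which those above 0 were 0.34 without si-NC 2, 0.21 without si-*Snhg18* 1 and 0.14 without si-*Snhg18* 3. The cause was not tested. The difference in the collagen share of reads was -0.11 percentage points and -0.244 to -0.0089 without 1 library. The fold of each chain ratio between the groups does not depend on division by exon length, since the length is constant for each gene and cancels. Levels under about 1 CPM rest on few reads.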

Other observations

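Several collagen genes lie next to each other in GRCm38. *Col3a1* and *Col5a2* face each other on chromosome 1 with 24614 bases between their ends, and their log2 fold changes were -0.68 and 0.32 (adjusted p = 0.552 and 0.409, edgeR), or -1.01 and 0.31 with the block (adjusted p = 0.0294 and 0.00935), where *Col3a1* did not pass in DESeq2 with the block (0.09). On chromosome 10, *Col6a2* and *Col6a1* lie 85161 bases apart on the same strand, with log2 fold changes of -0.52 and -0.18. *Col4a6* and *Col4a5* start 1308 bases apart on chromosome X, with log2 fold changes of -0.1 and -0.09.

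Within collagen V the per-kilobase ratio of *Col5a3* to *Col5a1* was 0.0139, 0.0201 and 0.0148 in si-NC 1 to 3 and 0.161, 0.0868 and 0.127 in si-*Snhg18* 1 to 3, without overlap. The ratio of *Col5a1* to *Col5a2* was 0.308 in si-NC and 0.341 in si-*Snhg18* on average, and that of *Col1a1* to *Col1a2* was 0.702 and 0.618, and both overlapped between the groups.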
